A study of Mus musculus with 12 samples.

Results

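The 10 genes described here belong to the transcriptional arm of the Hippo pathway: Cyr61 (listed as Ccn1 in current mouse annotation), Ctgf (Ccn2), Thbs1, Ankrd1, Amotl1, Amotl2, Lats2, Yap1, Tead1 and Tead2. They were chosen by symbol as known YAP and TEAD target genes and effectors, out of 51467 annotated genes, and all 10 were found in the count table. They were followed in mouse embryonic stem cells (ESCs) and in the epiblast-like cells (EpiLCs) made from them. ESCs were held in the naive state in medium with 15% fetal bovine serum, LIF and the 2 inhibitors PD0325901 and CHIR99021 (2i). EpiLCs were made from such ESCs by withdrawing LIF and 2i and harvesting about 56 h later. In the methods, differentiation used a reporter line of V6.5 ESCs that carries miR290-mCherry and miR302-GFP, so both cell types share these alleles and come from a single line. All cultures, of both cell types, received 500 µM 4-thiouridine (4sU) for 30 min. The RNA was then split. From 1 share the RNA labeled during the pulse was pulled down, which gave the 4sU libraries and stands for nascent RNA. From the other share ribosomal RNA was removed without any selection, which gave the total libraries. Each cell type and assay had 3 libraries, 12 in all.

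YAP (Yap1) and its paralogue TAZ (Wwtr1) are coactivators without a DNA-binding domain of their own, and TEAD transcription factors carry them to DNA. When the kinases LATS1 and LATS2 are active they phosphorylate YAP and TAZ, which are then kept in the cytoplasm or degraded. Angiomotins (Amot, Amotl1, Amotl2) hold YAP at cell junctions and the actin cytoskeleton. Several genes switched on by YAP and TEAD encode restraints on YAP itself, among them Lats2 and Amotl2, which makes a negative feedback loop. Cyr61, Ctgf and Ankrd1 are the target genes most often used to read YAP activity. The mRNAs of Cyr61 and Ctgf are also known as rapidly induced and short-lived.

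The depth was 3097693 to 5385644 counted reads per 4sU library and 9300845 to 21975684 per total library. Levels are given in CPM, counts scaled to a common library total, after TMM scaling, which corrects these totals for differences in composition. The cell states matched their labels: 6 of 6 naive markers were called lower in EpiLC total RNA and 5 of 6 formative markers higher. ESC replicate 3 stood apart from the other ESC libraries in both assays on the third principal component, at -41.97 against 9.92 and 11.66 for 4sU and at -24.64 against 24.80 and 22.64 for total RNA. For several results that lean on it, values without it are given as well. A list of 10 fibroblast markers was higher in EpiLCs, with a summed level of 13.2 to 15.3 CPM in ESC and 63.8 to 69.0 CPM in EpiLC total RNA. Fbn1 held most of these reads, with 160, 207 and 108 in the ESC and 392, 502 and 542 in the EpiLC total libraries. In EpiLC total RNA Lum had 0 reads in every library and Postn 1 read in all. Of the 4 fibroblast markers tested, 3 (Col1a2, Dcn and Fbn1) were called higher in EpiLCs. Cyr61, Ctgf and Thbs1 are also made by fibroblasts, and the part of such cells in the results was not tested. Of the other lineage markers tested, 2 of 3 for mesendoderm (T and Mixl1) and 1 of 2 for trophectoderm (Krt7) were called higher in EpiLC total RNA, and of 3 for primitive endoderm Gata4 was called higher and Sox17 lower. Genes were tested only if they passed a filter on low counts, 3 CPM in 3 or more libraries. Fgf5, Col1a2, Dcn, T, Mixl1 and Krt7 passed it only through EpiLC libraries, and Nr0b1 and Sox17 only through ESC libraries. The calls of these markers are therefore a description. Of all genes tested, 16.3% were called higher and 11.2% lower in EpiLC total RNA. In total RNA the mesendoderm list summed to between 17.2 and 28.1 CPM in ESC libraries and between 20.5 and 31.1 CPM in EpiLC libraries. The trophectoderm list lay between 2.82 and 3.64 CPM in ESCs and between 7.48 and 8.75 CPM in EpiLCs, with Elf5 at 0 reads in EpiLCs, and the primitive endoderm list between 4.98 and 10.5 CPM and between 8.15 and 9.04 CPM. Their part in the results was not tested either. In bulk RNA, fewer cells expressing a gene and less RNA per cell cannot be told apart.

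TEAD factors recognize the sequence GGAATG, or CATTCC when read on the opposite strand. Matches to this sequence within 250 bases before the transcription start are shown, and sites outside these windows are not shown. RefSeq promoter windows (GRCm38.p6) were present for 7 of the 10 genes, with 2 windows for Lats2. Each line gives 30 bases in the direction of transcription, with the element in capitals.
Cyr61, 103 bases before the start (chr3:145650071-145650100, minus strand): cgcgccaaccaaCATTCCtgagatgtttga
Ankrd1, 210 bases before the start (chr19:36120037-36120066, minus strand): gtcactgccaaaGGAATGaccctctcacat
Ankrd1, 123 bases before the start (chr19:36119950-36119979, minus strand): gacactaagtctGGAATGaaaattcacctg
Amotl2, 65 bases before the start (chr9:102717727-102717756, plus strand): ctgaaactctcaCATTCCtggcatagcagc
Yap1, 141 bases before the start (chr9:8004720-8004749, minus strand): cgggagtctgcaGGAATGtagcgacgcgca
Ankrd1 was the only one of the 7 with a pair of elements in this window. No match lay before the start in the windows of Amotl1, Lats2 and Tead2, although Lats2 had 1 match 4 bases after its first start. The windows of Amotl1 and Amotl2, and 1 of the 2 windows of Lats2, lie inside the annotated gene span and not at its outer 5′ end. Over all 32851 RefSeq promoters, 12.6% held at least 1 match in the same 250 bases. A match is a description of letters, and binding was not measured here.

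The study used nascent and total RNA to ask how far changes in mRNA level during the ESC to EpiLC transition come from transcription. In total RNA, all 10 genes had a log2 change above 0, and 6 of 10 (60%) were called higher in EpiLCs, at an adjusted p under 0.05 and a log2 change over 1. Of all 14731 genes tested, 16.3% were called higher and 11.2% lower, and none of the 10 genes was called lower. The median log2 change was 1.07 for the 10 genes and 0.02 for all genes tested. EpiLC libraries lay entirely above ESC libraries for 9 of the 10 genes, against 33.5% of all genes tested. In nascent RNA, 4 of 10 (40%) were called higher, against 11.9% of all genes, and none lower, against 13.5% of all genes. Nascent EpiLC libraries lay entirely above the ESC ones for 8 of the 10 genes, against 26.6% of all genes. The median nascent change was 0.95 for the 10 genes and -0.09 for all genes. Thbs1 and Ankrd1, called in both assays, passed the filter on low counts only through their EpiLC libraries. Their part in these counts was favored by the filter. The 10 genes were selected with earlier results of these data in view, so these counts describe the genes and no p-value is given for their changes between the cell types.

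**Figure D1:**
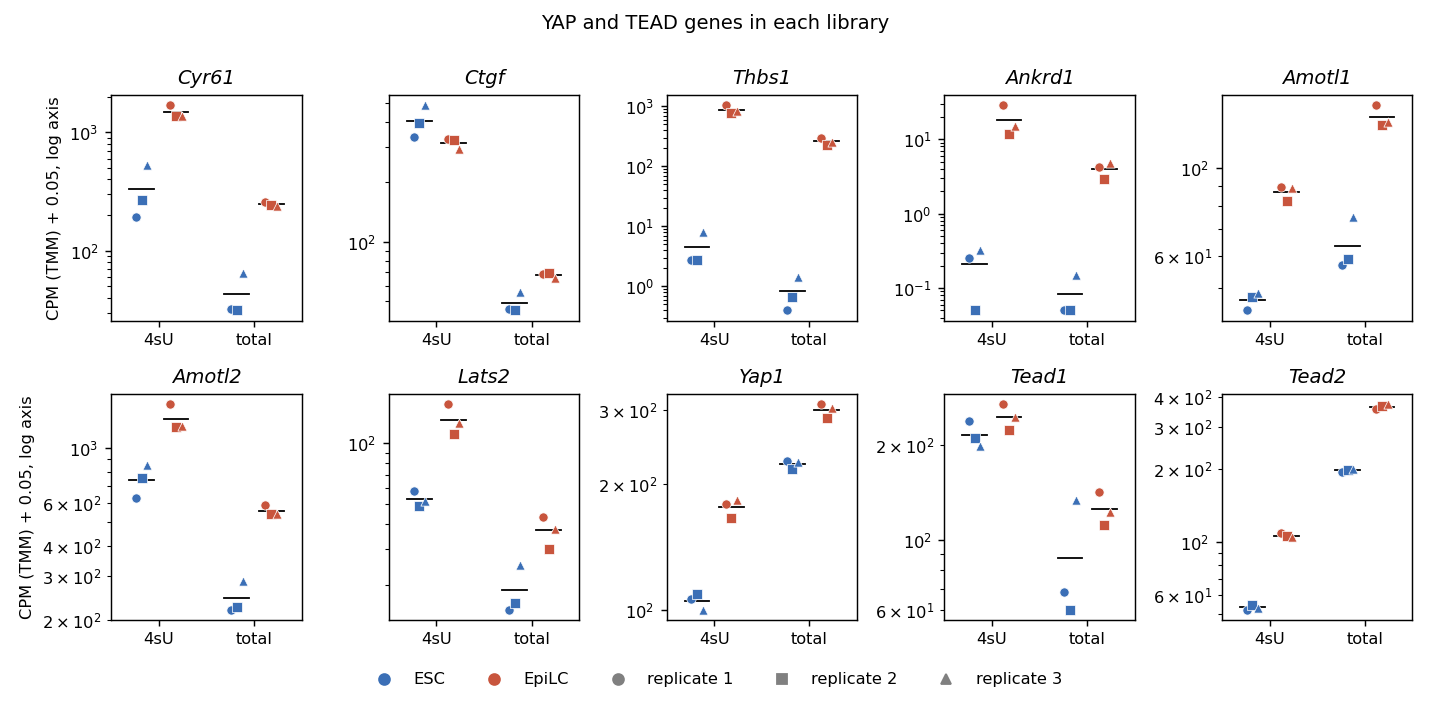
TMM-scaled CPM plus 0.05 on a log axis for each of the 10 genes, by assay, with 1 point per library (circle, square and triangle for replicates 1, 2 and 3) in ESCs (blue) and EpiLCs (red) and a black line at the mean of 3. EpiLC total libraries lie above the ESC ones for every gene except Tead1, where ESC replicate 3 reaches into the EpiLC range.

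The secreted targets spanned the widest range of changes. Cyr61 (chr3:145646976-145649981, minus strand) encodes a matricellular protein that signals through integrins. It stood at 32.3, 31.3 and 64.6 CPM in the ESC total libraries and at 257, 244 and 239 CPM in the EpiLC total libraries. ESC replicate 3 was the highest of its group, and all EpiLC libraries lay well above it. In nascent RNA Cyr61 was at 193, 269.45 and 527 CPM in ESCs and at 1687, 1369.9 and 1359 CPM in EpiLCs. The log2 change was 2.66 ± 0.30 (SE) in total and 2.29 ± 0.27 in nascent RNA, both called, and without ESC replicate 3 it was 2.94 and 2.65.

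Thbs1 (chr2:118111876-118127133, plus strand) encodes thrombospondin 1, a matrix glycoprotein that binds cell surfaces and can activate latent TGF-beta. The ESC total libraries held only 6, 12 and 14 reads of it, or 0.348, 0.604 and 1.38 CPM. The EpiLC total libraries held 2645, 2416 and 2571 reads, or 295, 229 and 256 CPM. Its nascent level went from 2.66, 2.68 and 8.13 CPM in ESCs to 1039, 785 and 825 CPM in EpiLCs. No library of one cell type came near the other, and the log2 change was 8.66 ± 0.48 in total and 7.88 ± 0.39 in nascent RNA, both called. ESC replicate 3 again held the highest ESC level in each assay, and without it the changes were 9.02 and 8.28.

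Ctgf (chr10:24595442-24598683, plus strand), the close relative of Cyr61, behaved otherwise. Total RNA was at 45.5, 45.0 and 55.8 CPM in ESCs and at 68.3, 69.7 and 65.8 CPM in EpiLCs, higher in every EpiLC library. Nascent RNA was at 334, 394 and 485 CPM in ESCs and at 328, 323 and 293 CPM in EpiLCs, lower in every EpiLC library. The log2 change was 0.50 ± 0.13 in total and -0.34 ± 0.12 in nascent RNA, and neither reached the fold threshold. Without ESC replicate 3 these changes were 0.58 and -0.23. Ctgf was the only one of the 10 genes whose nascent change was below 0.

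Ankrd1 (chr19:36111965-36119844, minus strand) encodes a nuclear ankyrin-repeat protein known from stretched muscle. It was all but absent from ESC libraries, with 0, 0 and 1 read in total RNA and 1, 0 and 1 read in nascent RNA. EpiLC libraries held 38, 30 and 47 reads in total RNA and 121, 55 and 50 reads in nascent RNA. Over summed reads and library totals the ratio of EpiLC to ESC was 195.8 in total RNA, with an exact 95% counting interval of 34.4 to 7798, and 132 in nascent RNA, with an interval of 36.1 to 1097. These intervals cover counting error only. Ankrd1, like Thbs1, passed the filter on low counts only through its EpiLC libraries, so a difference between the cell types was a condition of entering the fit. The other 8 genes would have passed on their ESC libraries alone. Its EpiLC level stayed low, at 4.24, 2.84 and 4.67 CPM in total RNA.

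The 3 restraints on YAP rose together by about the fold threshold. Amotl2 (chr9:102716802-102733418, plus strand), an angiomotin at cell junctions, was at 219.8, 226 and 287 CPM in ESC total libraries and at 587, 538 and 541 CPM in EpiLC total libraries. Amotl1 (chr9:14541966-14645056, minus strand), its paralogue, was at 57.0, 58.9 and 75.2 CPM in ESC and at 143, 128 and 130.02 CPM in EpiLC total libraries. Lats2 (chr14:57689662-57746123, minus strand), the kinase that phosphorylates YAP and TAZ, was at 15.0, 16.3 and 24.97 CPM in ESC and at 43.2, 30.0 and 37.8 CPM in EpiLC total libraries. The groups did not overlap for any of these genes in either assay. The log2 change in total RNA was 1.2 ± 0.12 for Amotl2, 1.09 ± 0.10 for Amotl1 and 1.04 ± 0.18 for Lats2, all called.

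In nascent RNA Lats2 was at 58.3, 48.8 and 51.8 CPM in ESCs and at 156, 112 and 125.5 CPM in EpiLCs. Amotl2 was at 625, 757 and 850.04 CPM in ESCs and at 1507, 1215 and 1226 CPM in EpiLCs. Every EpiLC library again lay above the ESC ones. Nascent RNA of Lats2 changed by 1.29 ± 0.18 and was called, while Amotl1 (0.90 ± 0.12) and Amotl2 (0.83 ± 0.12) did not reach the fold threshold. The call of Lats2 in total RNA was lost without ESC total replicate 1 (0.89), without ESC total replicate 2 (0.96), without EpiLC total replicate 1 (0.93) and with DESeq2 (0.96) or no expression filter (0.97). Without ESC replicate 3 in both assays its change in total RNA was 1.21. The call of Amotl1 was lost without ESC total replicate 1 (1.00).

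The effectors changed less. Yap1 (chr9:7931999-8004596, minus strand) was at 227, 217 and 226 CPM in ESC total libraries and at 309.7, 288 and 303 CPM in EpiLC total libraries. Its nascent level went from 106, 109 and 100.05 CPM to 179, 166 and 183 CPM. The groups did not overlap in either assay, and the log2 change was 0.43 ± 0.07 in total and 0.74 ± 0.08 in nascent RNA, under the fold threshold in both.

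Tead2 (chr7:45215753-45233644, plus strand), the TEAD factor known from early embryos, had the tightest replicates. Total RNA was at 195, 199 and 201 CPM in ESCs and at 355, 366 and 372 CPM in EpiLCs. The log2 change was 0.88 ± 0.06 in total and 0.99 ± 0.08 in nascent RNA. The nascent value lay so near the threshold that other scalings put it just above, at 1.05 with median-of-ratios scaling and 1.01 with library totals alone.

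Tead1 (chr7:112679318-112906807, plus strand) was the only gene whose groups overlapped. Total RNA was at 68.5, 60.0 and 133 CPM in ESCs and at 141, 111 and 122 CPM in EpiLCs. The overlap came from ESC replicate 3, which held about the EpiLC level, and the other ESC libraries lay below every EpiLC library. The log2 change in total RNA was 0.63 ± 0.21, or 0.94 without ESC replicate 3. In nascent RNA Tead1 was at 238, 209.9 and 197 CPM in ESCs and at 268, 222 and 244 CPM in EpiLCs, a log2 change of 0.18 ± 0.21. There ESC replicate 3 was the lowest of its group.

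**Figure D2:**
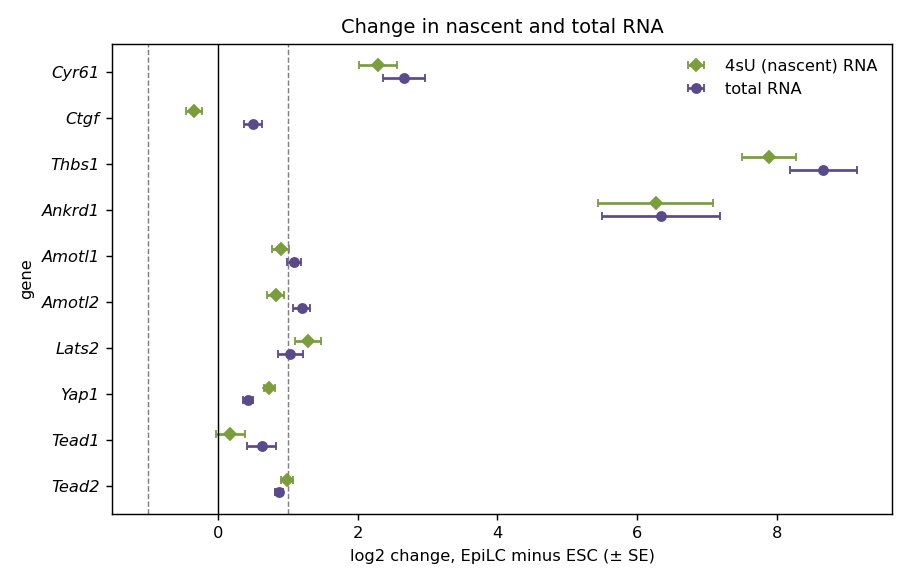
Log2 change from ESC to EpiLC with its SE for nascent (green diamonds) and total RNA (purple circles) of the 10 genes, with dashed lines at -1 and 1, the fold threshold. Thbs1 and Ankrd1 lie far to the right of the others, and Ctgf is the only gene with its nascent point left of 0 and its total point right of it.

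Levels per kilobase of exon allow the 10 genes to be set beside each other. In ESC total RNA the order was led by Tead2 (56.6 ± 0.83 CPM per kilobase, SD, n = 3), Amotl2 (54.7 ± 8.29) and Yap1 (53.5 ± 1.31), and the range of Amotl2 overlapped both of the others, while Yap1 lay below Tead2 in every library. Cyr61 (21.2 ± 9.39) and Ctgf (17.6 ± 2.20) overlapped, as did Tead1 (8.68 ± 3.99) and Amotl1 (6.97 ± 1.09). Lats2 (2.90 ± 0.84), Thbs1 (0.133 ± 0.092) and Ankrd1 (0.019 ± 0.032) followed without overlap. In EpiLC total RNA Amotl2 (124 ± 6.21) and Cyr61 (122 ± 4.52) led and overlapped, followed by Tead2 (104 ± 2.45), Yap1 (72.0 ± 2.68), Thbs1 (44.4 ± 5.69) and Ctgf (24.5 ± 0.72), each below all libraries of the one before. Amotl1 (14.6 ± 0.93) and Tead1 (12.4 ± 1.52) overlapped, and Lats2 (5.72 ± 1.02) and Ankrd1 (2.22 ± 0.54) came last. In EpiLC nascent RNA Cyr61 led all others at 729 ± 92.2 CPM per kilobase, above Amotl2 at 295 ± 37.1 and Thbs1 at 151 ± 23.4.

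The ratio of total to nascent RNA gave a relative mRNA stability. It was taken between libraries of the same cell type and number, and it is relative because each library is scaled to its own composition. Expressed as log2 of total over 4sU CPM, Cyr61 was at -2.91 ± 0.28 (SD, n = 3) in ESCs and -2.57 ± 0.13 in EpiLCs. Percentiles, and the medians of all genes, were taken from the ratio of mean total to mean 4sU CPM. By that ratio Cyr61 lay at the 10.8 and 9.4 percentile of all genes tested. Ctgf was at -3.04 ± 0.14 (percentile 10.2) in ESCs and -2.21 ± 0.06 (percentile 12.2) in EpiLCs. Thbs1, at -2.55 ± 0.39 and -1.76 ± 0.06, lay at the 12.9 and 15.4 percentile. Ankrd1 had a value only in EpiLCs, -2.15 ± 0.55 (percentile 12.1), since ESC libraries without a read give no ratio. The targets Cyr61, Ctgf, Thbs1 and Ankrd1 thus sat low among all genes in every cell type where they could be measured.

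The other genes covered a wide span. Lats2 (-1.53 ± 0.45 in ESCs, -1.83 ± 0.08 in EpiLCs) and Amotl2 (-1.61 ± 0.12 and -1.24 ± 0.10) lay between the 14.9 and 20.4 percentile. Tead1 was at -1.39 ± 0.71 in ESCs, where the third pair of libraries gave -0.57 against -1.80 and -1.81, and at -0.97 ± 0.04 in EpiLCs. Amotl1 stood near the middle, at 0.44 ± 0.17 (percentile 61.0) in ESCs and 0.62 ± 0.07 (percentile 64.0) in EpiLCs. Yap1 reached 1.09 ± 0.09 (percentile 78.2) and 0.77 ± 0.04 (percentile 68.1). Tead2 was the highest, at 1.90 ± 0.02 (percentile 93.1) and 1.78 ± 0.06 (percentile 91.8). Within the paralogue pairs Amotl1 stood above Amotl2, and Tead2 above Tead1, in both cell types. The median over the 9 genes with a value in every pair of libraries was -1.53 ± 0.42 in ESCs and -1.24 ± 0.10 in EpiLCs, against 0.05 and 0.16 for all genes tested.

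**Figure D3:**
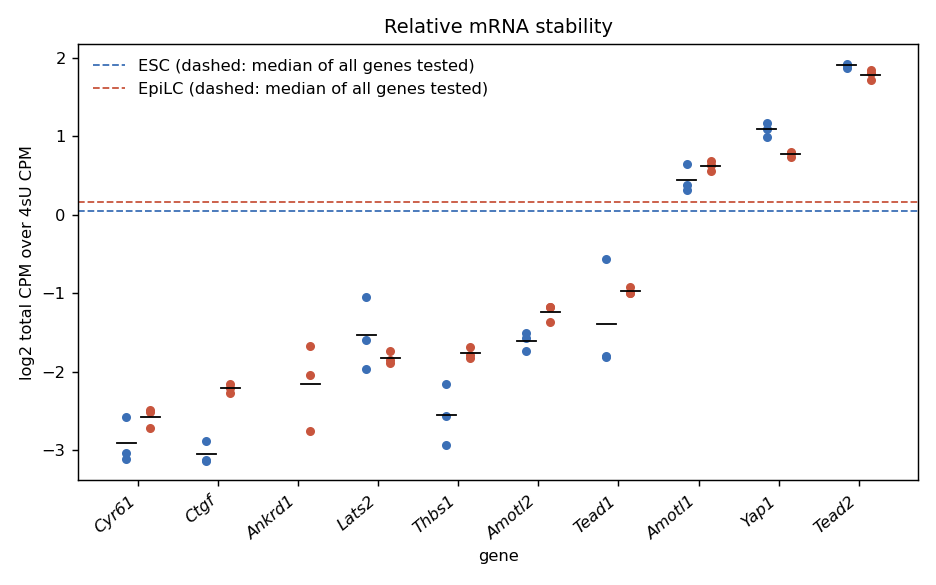
Log2 of total over 4sU CPM for each gene, ordered by its EpiLC mean, with 1 point per pair of libraries in ESCs (blue) and EpiLCs (red), a black line at the mean of 3 and dashed lines at the median of all genes tested. Cyr61, Ctgf, Ankrd1, Lats2, Thbs1, Amotl2 and Tead1 lie below the dashed lines, Amotl1, Yap1 and Tead2 above, and Ankrd1 has no ESC value.

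Instability elements in the 3′ UTRs (GENCODE M21 transcripts, mm10) are shown for the low-lying targets. The AU-rich element was searched as TATTTAT, and 26.1% of 20732 3′ UTRs held at least 1 and 9.59% at least 2, overlapping matches counted. Ankrd1 held 4 and Thbs1 3, Cyr61 and Tead1 held 2 each, and Amotl1, Lats2 and Tead2 held 1 each. Ctgf, Amotl2 and Yap1 held none. Ankrd1, Thbs1, Cyr61 and Tead1, with 2 or more matches, lay below the median stability of all genes where measured. So did Lats2 with 1 match and Ctgf and Amotl2 without any. Yap1 without a match and Amotl1 and Tead2 with 1 lay above it. Matches per kilobase were 5.39 for Ankrd1, 2.90 for Cyr61, 1.45 for Tead2 and 1.43 for Thbs1. They were 0.62 for Lats2, 0.25 for Tead1 and 0.17 for Amotl1, against 0.31 over all 3′ UTRs. A link between element and stability was not tested. The matches of Cyr61 and a pair of overlapping matches of Ankrd1 read as follows in the direction of transcription, with the element in capitals.
Cyr61, position 556 of the 3′ UTR (chr3:145647093-145647121, minus strand): gaatgttttttTATTTATcaaagtgtagc
Cyr61, position 649 of the 3′ UTR (chr3:145647000-145647028, minus strand): tgaagagaattTATTTATaaaattaatca
Ankrd1, position 195 of the 3′ UTR (chr19:36112495-36112523, minus strand): ttattcctaccTATTTATttatttcatag
Ankrd1, position 199 of the 3′ UTR (chr19:36112491-36112519, minus strand): tcctacctattTATTTATttcatagcacc

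Lats2 is a known target of the miR-302 and miR-290 families, which share 1 seed. The paper describes microRNAs with this seed as a large part of those in ESCs. By its flow cytometry, naive ESCs carried signal from the miR-290 reporter but not from the miR-302 reporter, and EpiLCs carried both. Mature sequences from both families, taken from RefSeq, are given with the seed, bases 2 to 8, in capitals.
mmu-miR-291a-3p: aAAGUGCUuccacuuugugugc
mmu-miR-294-3p: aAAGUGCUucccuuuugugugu
mmu-miR-295-3p: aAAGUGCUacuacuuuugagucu
mmu-miR-302b-3p: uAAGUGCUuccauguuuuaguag
mmu-miR-302d-3p: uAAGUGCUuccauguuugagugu
The matching site, AGCACTT, occurred 2 times in the 3′ UTR of Lats2 and in none of the other 9 genes. Over all 3′ UTRs 13.5% held at least 1 site and 2.19% at least 2. The 2 sites of Lats2, in capitals, are the following.
Lats2, position 195 of the 3′ UTR (chr14:57691076-57691104, minus strand): agtatggaaagAGCACTTattttgtggat
Lats2, position 294 of the 3′ UTR (chr14:57690977-57691005, minus strand): ttgtatctgatAGCACTTgtccacagcta
The microRNAs themselves were not measured in these libraries.

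Whether the mRNAs changed in stability between ESCs and EpiLCs was tested by the interaction of cell type and assay, the total change minus the nascent change. None of the 10 genes was called, by limma-voom, edgeR or DESeq2. Thbs1 and Ankrd1 entered the fit only through their EpiLC libraries. With at most 1 read in any ESC library, Ankrd1 could not be judged for a stability change. At an unadjusted p under 0.05 limma-voom gave 3 of the 10 (Ctgf, Amotl2 and Yap1), and edgeR and DESeq2 gave 2 each (Ctgf and Yap1). Of all genes tested, 22.9% had such a p by limma-voom, 23% by edgeR and 21.1% by DESeq2, so these counts lie near the background. Of all genes tested, 1.24% were called higher in EpiLCs and 0.305% lower, which is 182 and 45 genes, and the split was 132 and 66 with median-of-ratios scaling and 253 and 28 with library totals alone. The median stability change was 0.27 for the 10 genes and 0.11 for all genes.

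Ctgf had the largest stability change of the 10, 0.84 ± 0.17 with a limma-voom adjusted p of 0.0167, and fell short of the fold threshold. It was the only one of the 10 with an adjusted p under 0.05, which 4.6% of all genes tested had in either direction. Pairs of libraries did not overlap between the cell types for Thbs1 and Amotl2, higher in EpiLCs, and for Yap1 and Tead2, lower in EpiLCs. They overlapped for Cyr61, Amotl1, Lats2 and Tead1, and the share of all genes without overlap was not computed. For Ctgf all EpiLC pairs (-2.27, -2.21 and -2.16) lay above all ESC pairs (-2.88, -3.13 and -3.12). The adjusted p was 6.71e-05 without ESC replicate 3 and rose above 0.05 in 5 of the 12 fits that left out 1 library: 0.063 and 0.051 without ESC total replicate 1 or 2, 0.0547 and 0.0626 without EpiLC 4sU replicate 1 or 3, and 0.0535 without EpiLC total replicate 2 (limma-voom). For Yap1 the change was -0.31 ± 0.10 (limma-voom adjusted p = 0.0895, DESeq2 adjusted p = 0.00368), and for Amotl2 it was 0.37 ± 0.17 (limma-voom adjusted p = 0.216). With same-numbered libraries paired in the fit, the limma-voom adjusted p was 0.000865 for Ctgf, 0.0581 for Yap1 and 0.03 for Amotl2.

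The remaining genes, apart from Ankrd1 (0.08 ± 1.17), had limma-voom adjusted p-values from 0.409 for Tead1 to 0.643 for Cyr61. Tead1 turned on 1 library: its change was 0.44 ± 0.30 with all libraries, and 0.77 (limma-voom adjusted p = 0.00435) without ESC total replicate 3. Without both ESC replicate 3 libraries it was 0.84 (limma-voom adjusted p = 0.000343), and that of Amotl2 was 0.40 (limma-voom adjusted p = 0.0241). Cyr61 changed by 0.36 ± 0.40 and Thbs1 by 0.78 ± 0.62, so that differences of this size were not detectable in this fit, which leaves the libraries unpaired.

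The TEAD family was compared per kilobase, since its genes differ in length. In total RNA Tead2 made up 70.4% ± 2.42 (SD, n = 3) of the family in ESCs and 83.6% ± 2.00 in EpiLCs. Tead4, the TEAD factor of the trophectoderm, made up 17.5% ± 2.47 in ESCs and 1.10% ± 0.22 in EpiLCs. Tead3 went from 1.42% ± 0.32 to 5.28% ± 0.74, and Tead1 held 10.7% ± 4.39 and 9.98% ± 1.18. Without ESC replicate 3 the ESC share of Tead1 was 8.15%, below its EpiLC share. The shares of Tead2, Tead3 and Tead4 did not overlap between the cell types. In nascent RNA the family was more even, with Tead1 at 40.4% ± 1.30, Tead2 at 28.9% ± 2.57 and Tead4 at 26.3% ± 2.98 in ESCs. Tead2 thus held a much larger share of total than of nascent TEAD RNA. The summed level of the 4 genes in total RNA went from 80.5 ± 3.46 to 124 ± 1.10 CPM per kilobase.

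**Figure D4:**
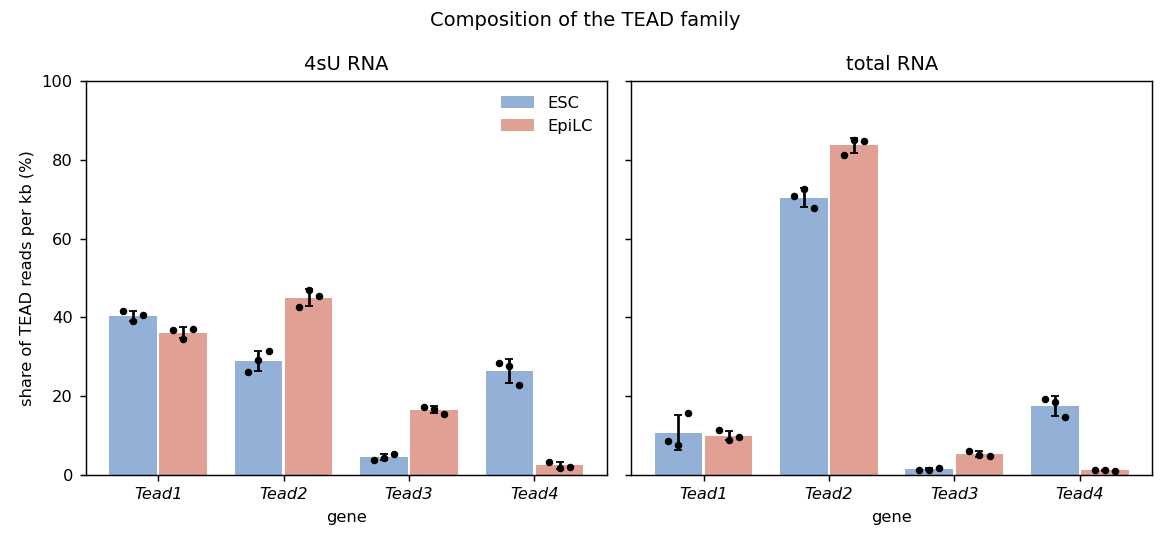
Share of each TEAD gene in the summed reads per kilobase of the family, in percent, for 4sU and total RNA of ESCs (blue) and EpiLCs (red), with bars at the mean of 3 libraries, error bars of 1 SD and black points for single libraries. Tead2 holds the largest share in total RNA of both cell types, and the Tead4 bars nearly vanish in EpiLCs.

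The other effectors, and the further pathway lists below, were also drawn up with earlier results known. No p-value is therefore given for their changes in RNA level between the cell types. Tead4 fell by 3.37 ± 0.22 on the log2 scale in total RNA, and Tead3 rose by 2.59 ± 0.18, both called. Vgll3, a Vestigial-like cofactor that binds TEAD in place of YAP, stood at a low 0.805 ± 0.19 CPM in ESC total RNA and had a log2 change of 3.14 ± 0.27. It passed the filter only through its EpiLC libraries, so this value is a description. Wwtr1, which encodes TAZ, was at 110.01 ± 6.87 CPM in ESCs and 90.4 ± 5.61 in EpiLCs, a log2 change of -0.28 ± 0.07, under the fold threshold. The share of Yap1 in the summed Yap1 and Wwtr1 reads per kilobase was 69.9% ± 1.09 in ESC and 79.2% ± 0.54 in EpiLC total RNA. Vgll4, a cofactor that restrains TEAD, changed by -0.09 ± 0.17 in total RNA and by -0.82 ± 0.23 in nascent RNA, under the fold threshold in both. Vgll1 and Vgll2 did not pass the filter, with at most 5 reads in any library.

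**Figure D5:**
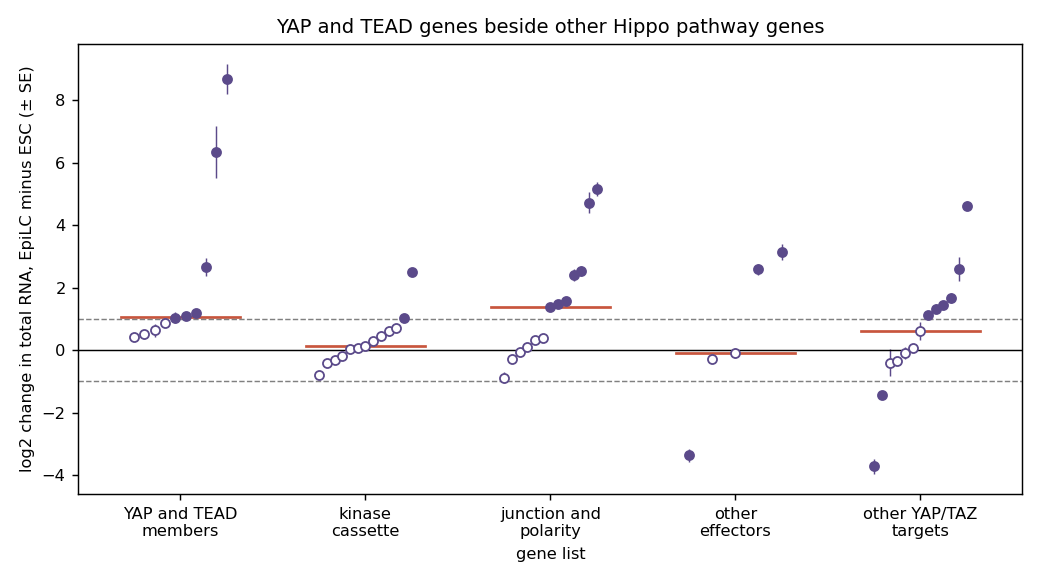
Log2 change in total RNA with its SE for the 10 genes and for the tested genes of 4 Hippo pathway lists, with filled points for called genes, open points for others, red lines at the median of each list and dashed lines at -1 and 1. The kinase list lies mostly between the dashed lines, and the junction and polarity list has its median, 1.38, above the upper line.

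A further 50 Hippo pathway genes were followed in the 4 lists, of which 44 passed the filter. In total RNA 17 (38.6%) were called higher and 3 (6.82%) lower, against 16.3% and 11.2% of all genes tested. In nascent RNA 14 (31.8%) were called higher and 3 (6.82%) lower, against 11.9% and 13.5%. Their median change was 0.36 in total and 0.37 in nascent RNA. Amot, Dchs1 and Vgll3, called higher in both assays, passed the filter only through their EpiLC libraries, so their part in these counts is a description. In the list of Hippo kinases, adaptors and upstream scaffolds, 2 of 13 (15.4%) were called higher in total RNA, near the 16.3% of all genes. Taok3, a kinase that can activate the Hippo kinases, rose by 2.49 ± 0.11, and Lats1, the paralogue of Lats2, by 1.03 ± 0.13. None of the 13 was called lower, and the median was 0.14. The call of Lats1 was lost without EpiLC total replicate 1 (0.98) and with no expression filter (0.97). The share of Lats2 in the summed Lats1 and Lats2 reads per kilobase was 40.8% ± 5.54 in ESC and 40.4% ± 3.19 in EpiLC total RNA.

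Of 13 tested junction and polarity genes, 7 (53.8%) were called higher in total RNA, against 16.3% of all genes, and none lower. The largest changes were those of Amot, the founding angiomotin, from 1.98 ± 0.73 to 72.9 ± 7.38 CPM (log2 change 5.15 ± 0.22), and Dchs1, a large cadherin that binds Fat cadherins, from 0.558 ± 0.32 to 14.3 ± 1.65 CPM (4.72 ± 0.33). Both passed the filter only through their EpiLC libraries, so these values, and their part in the count of 7, are a description. Per kilobase Amot held 0.454% ± 0.21 of the angiomotin reads in ESC total RNA and 6.62% ± 0.49 in EpiLC total RNA, and Amotl2 held 88.3% ± 0.13 and 83.6% ± 0.53. Amotl2 thus made up most of the family in both cell types.

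The list of other YAP and TAZ targets, taken from a widely used cancer signature, moved in both directions. Of 13 tested, 6 (46.2%) were called higher and 2 (15.4%) lower in total RNA, against 16.3% and 11.2% of all genes, with a median change of 0.61. Igfbp3, which encodes a binding protein of insulin-like growth factors, rose by 4.62 ± 0.15, and Tgfb2, a TGF-beta ligand, by 2.60 ± 0.39. Myof, a membrane repair protein, fell by 3.72 ± 0.24, and Dock5, an activator of Rac, fell by 1.43 ± 0.12. Of the 44 pathway genes 1 (2.27%) was called for stability, against 1.24% of all genes called higher and 0.305% lower. It was Tgfb2, at 2.20 ± 0.48 (limma-voom adjusted p = 0.022). Its nascent libraries overlapped between the cell types, at 10.02, 4.47 and 8.68 CPM in ESCs and 12.02, 6.99 and 10.1 CPM in EpiLCs. Its total level was 0.695, 0.705 and 0.688 CPM in ESCs and 4.57, 3.88 and 4.77 CPM in EpiLCs, or 7 to 14 reads per ESC library. The call was lost without ESC total replicate 1 or 2, EpiLC 4sU replicate 2 or EpiLC total replicate 3, where the limma-voom adjusted p ran from 0.0554 to 0.0683.

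Among 10201 other genes that averaged 10 CPM or more, those whose log2 levels over the 12 libraries were most like Cyr61 were Rassf1, a gene of the junction and polarity list (Pearson r = 0.994), Mafk (0.992) and Prag1 (0.991). Those most like Yap1 were S100a10 (0.995), Myh9 (0.991) and Igf2bp3 (0.990). Like Cyr61, the first 3 genes had their highest level in EpiLC 4sU libraries, and like Yap1 the other 3 had theirs in EpiLC total libraries. The 12 points are 4 groups of 3, and both the cell type and the assay enter the likeness.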

How the data were processed

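The authors deposited raw read counts per gene, made from strand-specific single-end reads trimmed with cutadapt 1.14, aligned to mm10 with STAR 2.5.3a, kept where unique, and summed over the exons of GENCODE M14 genes with featureCounts 1.5.3. The 92 spike-in entries held 0 reads, so no absolute scale exists. Groups came from the labels. The 14731 genes that reached 3 CPM in 3 or more libraries were fitted with limma-voom (limma 3.58.1, TMM from edgeR 4.0.16, R 4.3.3) in 1 model with a mean for each of the 4 groups, after the study's methods. Adjusted p-values are Benjamini-Hochberg values over all genes tested. The study calls its replicates biological but the labels do not say what was separate, so p-values measure the spread between these libraries. DESeq2 1.42.0, edgeR's quasi-likelihood test, other scalings, filters and left-out libraries were alternatives. Scripts were tested on simulated data. The genes and lists were chosen with earlier results of these data known. By rule the text names the 10 genes, the other effectors, per list the 2 largest called rises and falls in total RNA, each stability call, and the 3 genes most like Cyr61 and Yap1 (log2 CPM plus 0.5). Motifs were searched in RefSeq promoters (GRCm38.p6) and GENCODE M21 3′ UTRs. No RefSeq promoter was listed for Ctgf, Thbs1 and Tead1.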

Additional observations from a re-analysis of the deposited data

Results flagged for a closer look

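The total and the nascent change differed by the test of the interaction (limma-voom adjusted p under 0.05) for 1 of the 10 genes and 5 of the 44 other pathway genes, against 4.6% of all genes tested. Ctgf had a stability change of 0.84 ± 0.17 (limma-voom adjusted p = 0.0167), with its nascent RNA lower and its total RNA higher in EpiLCs. Tgfb2 changed by 2.20 ± 0.48 (limma-voom adjusted p = 0.022). Taok3 changed by 0.66 ± 0.16 (limma-voom adjusted p = 0.033) and Igfbp3 by 0.93 ± 0.23 (limma-voom adjusted p = 0.0389), so that total RNA rose by more than nascent RNA in both. Mob1a, an adaptor of the LATS kinases, changed by -0.53 ± 0.11 (limma-voom adjusted p = 0.0153). Ctnna1, which encodes alpha-catenin, changed by -0.41 ± 0.10 (limma-voom adjusted p = 0.0366). Over the 12 fits that left out 1 library, the limma-voom adjusted p of Taok3 was above 0.05 in 10 and reached 0.127 (without ESC total replicate 1), and it stayed under 0.05 only without ESC 4sU replicate 1 or ESC total replicate 3 (0.0056). That of Igfbp3 was above 0.05 in 8 and reached 0.156 (without ESC 4sU replicate 2), and stayed under 0.05 without ESC 4sU replicate 3, ESC total replicate 1 or 3, or EpiLC 4sU replicate 1. That of Ctnna1 was above 0.05 in 5, without ESC total replicate 2, EpiLC 4sU replicate 1 or 2, or EpiLC total replicate 2 or 3, and reached 0.0991. That of Mob1a was above 0.05 in 1, at 0.0509 without EpiLC total replicate 2.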

How the results depend on the processing

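The number called among the 10 chosen YAP and TEAD genes was 6 in total RNA, 4 in nascent RNA and 0 in stability. With the adjusted p alone it was 10, 9 and 1, and for the other pathway genes 33, 30 and 5 in place of 20, 17 and 1; the cause is the dropped fold threshold. Over the 12 fits without 1 library the counts ran from 4 to 6, from 4 to 5 and stayed at 0, and for the other pathway genes from 19 to 20, from 16 to 18 and from 0 to 2. The stability change of Ankrd1, 0.08 ± 1.17, was -0.14 with no expression filter, -0.10 with edgeR and -0.43 to 0.90 without 1 library, and that of Cyr61 was -0.10 to 0.70 without 1 library; the cause was not tested. The median relative stability of the 9 genes in EpiLCs, -1.24, was -1.39 with median-of-ratios scaling and -1.40 with library totals alone, and -1.27 to -1.18 without 1 pair of libraries; in ESCs it was -1.77 to -1.40. Without the length correction the shares of Tead1, Tead2 and Tead3 were 25.1%, 58.8% and 1.00% in ESCs and 24.3%, 70.9% and 3.84% in EpiLCs, because Tead1 is the longest. Of 1342 gene changes recomputed under alternatives, 1289 kept their direction and call. The labels say that samples were split but not that the number marks the shared extract. Same-numbered 4sU and total libraries deviated together in ESCs (r 0.213 to 0.462, 3 of 3 best with their own number) and less so in EpiLCs (0.023 to 0.092, 2 of 3). The ESC values go with a pairing by number, which the labels do not state, and the fit without the block was kept as the main one. The replicate block gave 6, 4 and 0 calls for the 10 chosen YAP and TEAD genes and 20, 17 and 1 for the other pathway genes. Over all genes, stability calls moved from 227 to 528 with the block by culture, where the limma-voom adjusted p was 0.000865 for Ctgf and 0.03 for Amotl2, and to 779 without ESC replicate 3. Nascent libraries held the fewest reads, and ESC levels of Ankrd1 and Thbs1 rest on few reads.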
